A study of Danio rerio with 18 samples.

Results

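Typical enhancers listed for the testis of adult zebrafish that met no listed region of 3 other organs numbered 2351, of 9434 typical enhancers in the testis list. They were selected on the H3K27ac region lists themselves, as the testis typical enhancers without a single base pair of overlap with any super-enhancer or typical enhancer of the brain, the heart at 10 months, the heart at 1 year or the intestine at 1 year. They are called testis-only typical enhancers here, and the 7083 testis typical enhancers that met at least 1 region of those lists are called the other testis typical enhancers. The name refers to the lists alone. Whether these places carry some H3K27ac in the other organs, below what entered their lists, was not tested. All 10 region lists together held 66306 regions on 25 chromosomes.

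Acetylation of histone H3 at lysine 27, H3K27ac, is laid down on nucleosomes beside active enhancers and active promoters, so a region list built from it marks stretches of active regulatory DNA and not enhancers alone. A super-enhancer is a long cluster of such regions with a high summed signal, and a typical enhancer is any region that falls short of that mark. In the testis most cells belong to the germ line, from dividing spermatogonia through meiotic spermatocytes to spermatids, and these sit among somatic Sertoli and Leydig cells. Germ cells are known for expressing many genes that are silent in somatic organs.

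The testis lists came from 2 H3K27ac immunoprecipitations and 2 input libraries of wild-type AB males aged 10 months, each prepared from 8 testes. The lists they are set against came from wild-type AB males as well. The brain at 10 months had 2 immunoprecipitated libraries of 12 brains each, the heart at 10 months 1 library of 20 hearts, the heart at 1 year 2 libraries of 20 hearts each and the intestine at 1 year 2 libraries of 5 intestines each, and each of these libraries had an input of its own. Fragments of 175 bp in the fish of 10 months and 200 bp in the fish of 1 year were used, so age and preparation differed together between these lists. Whole organs were used, so more cells with a mark and more of the mark per cell cannot be told apart. Each tissue and age has 1 list of each kind with no value per library, and read depth is unknown. Genes could not be placed on the build of the files, Zv9, so no marker gene was checked and no region is assigned to a gene.

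Because the lists themselves chose the members, no test was run of testis-only against other testis typical enhancers. The values below describe these lists. Intervals are exact 95% intervals over regions (Clopper-Pearson for shares, order statistics for medians). They cover counting error only, treat neighbouring regions as independent and say nothing of the spread between fish.

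Testis-only regions made up 24.9% of the testis typical list (95% interval 24.1 to 25.8). The same rule applied to the other lists kept 32.3% of brain typical enhancers (4061 of 12571), 23.0% of intestine (3201 of 13897), 11.6% in 1-year hearts (1547 of 13362) and 9.03% in 10-month hearts (1179 of 13053). Each heart list was thereby also set against the other heart list, which lowers its share. Of the testis typical enhancers that were not testis-only, 1507 met 1 other tissue and age, 1008 met 2, 1439 met 3 and 3129 met all 4, so meeting all 4 was the most frequent outcome (33.2% of the testis list). The heart at 1 year was met by 58.1% of testis typical enhancers, the intestine by 56.2%, the heart at 10 months by 53.7% and the brain by 47.8%. The regions of these lists summed to unlike lengths, 213, 197, 133 and 171 Mb in the same order. Neither these shares nor the counts in the next paragraph were adjusted for this, so they do not rank likeness to the testis.

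Counted for each organ and age apart, the brain nevertheless removed the most regions on its own. It was the sole list met by 640 testis typical enhancers, against 405 for the intestine, 270 for 1-year hearts and 192 for 10-month hearts. Without the brain lists the testis-only set would have held 2991 regions, without the intestine 2756, without the heart at 1 year 2621 and without the heart at 10 months 2543. Regions met by both hearts and nothing else count for neither heart here. The number without both hearts was not computed, so the brain is not ranked against the heart as an organ.

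Testis-only regions lay at widely differing distances from the regions of other lists. The median distance to the nearest region of any other list was 13.4 kb (95% interval 12.8 to 14.2), with quartiles of 5.40 and 28.0 kb. Within 1 kb of such a region lay 58 of them (2.47%), a further 460 lay between 1 and 5 kb, and 87 (3.70%) lay more than 100 kb away. By the same rule and measure, the median was 21.6 kb for brain-only and 16.0 kb for intestine-only typical enhancers. It was 13.6 kb for those of the 1-year heart only and 11.2 kb for those of the 10-month heart only. The lists set against the testis held 4.15 regions per 100 kb over all chromosomes. The distance that this density alone would give was not computed. For testis-only regions the nearest one belonged to the brain for 687, to the intestine for 684, to the heart at 1 year for 683 and to the heart at 10 months for 297. Ties went to the list read first, in the order 1-year heart, intestine, brain and 10-month heart. They were not counted, so these numbers do not rank the lists. The median distance to the nearest region of each was 33.8 kb for the brain, 33.4 kb for 10-month hearts, 29.2 kb for 1-year hearts and 28.8 kb for the intestine. The region counted as nearest was a super-enhancer for 5.57% of testis-only regions, and super-enhancers were 6.05% of the regions in those lists. Of the other testis typical enhancers, 5100 were covered over their full length and 749 over less than 50% of it.

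At the edge of the rule the distances follow the 200-bp grid on which every region starts, with ends 1 bp short of it. The smallest gap was 201 bp and was found for 4 testis-only regions, among them chromosome 5 from 41451001 to 41452599 beside a brain region and chromosome 7 from 53619201 to 53621199 beside an intestine region. The next gap was 0.401 kb, found among others for chromosome 1 from 57700001 to 57714599. Just outside the rule, 17 regions overlapped another list by 199 bp, the smallest overlap found. They include chromosome 1 from 21438201 to 21442199 and chromosome 7 from 37776201 to 37779199.

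Of the 5 members farthest from any region of the other lists, 4 were on chromosome 4. The long arm of this chromosome is known as largely heterochromatic, and any part of this in the distances was not tested. The 87 members more than 100 kb away were not counted by chromosome. Chromosome 4 from 36409601 to 36410799 (1.20 kb) was 1398 kb from the nearest region of any other list, and its nearest testis typical enhancer, chromosome 4 from 36311201 to 36312199 (0.999 kb), lay 97.4 kb away and was testis-only too. Chromosome 4 from 55513801 to 55514399 was 853 kb from any other list and chromosome 4 from 52107201 to 52107599 was 692 kb away. All of these were at most 1.20 kb long. The last of the 5, chromosome 7 from 18362401 to 18366599, was 4.20 kb long and 595 kb away.

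Testis-only regions were mostly single stretches of acetylation and were narrow in their range of length. Their median length was 3.20 kb, with quartiles of 2.20 and 4.40 kb, against a median of 3.40 kb and quartiles of 2.0 and 5.80 kb for the other testis typical enhancers. Together they covered 9.19 Mb, against 39.2 Mb for the others. Regions over 10 kb were 4.85% of testis-only regions (4.02 to 5.80) and 15.1% of the others (14.2 to 15.9). Length and the rule are not independent, since a longer region has more bases that can meet another list. When a region counted as shared only if at least 50% of it was covered, the testis-only median became the longer one, by 0.40 kb.

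The number of loci joined into each region is given in its name. Testis-only regions had 1 locus in 93.0% of cases (2187 regions, 95% interval 91.9 to 94.0), against 80.1% of the others (79.2 to 81.1). A further 149 had 2 loci, 14 had 3 and 1 had 4. The share that was testis-only fell with each added locus. It was 27.8% of single-locus testis typical enhancers, 11.7% of those with 2 loci, 6.11% with 3 and 2.5% with 4, and 0 of the 19, 2 and 4 regions with 5, 6 and 7 loci, for which the intervals reach 17.6%, 84.2% and 60.2%. The difference of 12.9 percentage points in the single-locus share was 0.28 points when a shared region had to be covered by at least 50%.

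Within single-locus regions the order of the lengths turned round. Testis-only single-locus regions had a median of 3.20 kb (quartiles 2.0 and 4.20), against 2.80 kb (quartiles 1.80 and 4.0) for the other single-locus regions. The testis-only share was 23.3% among single-locus regions of 1 to 2 kb, 27.3% at 2 to 3 kb, 31.7% at 3 to 4 kb and 30.9% at 4 to 5 kb. It was 22.3% at 6 to 8 kb and 28.7% below 1 kb, so it did not rise steadily with length. Among regions of 2 and 3 loci the testis-only medians were shorter, 11.6 kb against 12.4 kb and 20.0 kb against 22.8 kb.

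**Figure D1:**
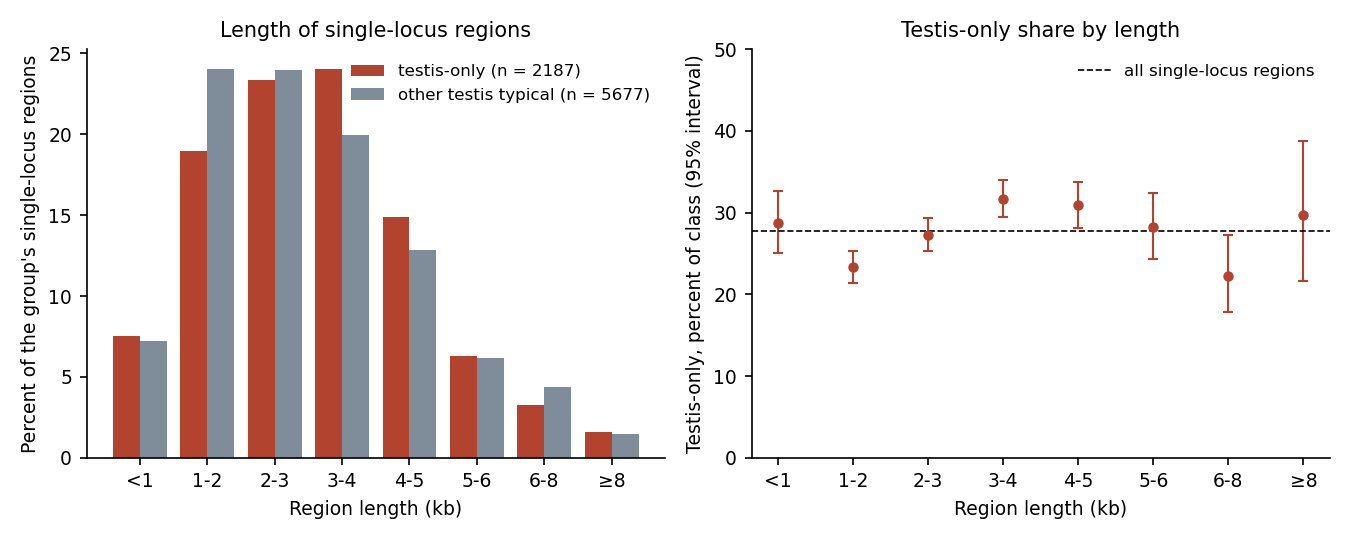
Left, the lengths of single-locus testis-only regions (red, left bars) and other single-locus testis typical enhancers (grey) as percentages of each group. Right, the testis-only share of each length class with its exact 95% interval; the dashed line is the share over all single-locus regions, 27.8%. The share was lowest at 6 to 8 kb (22.3%) and at 1 to 2 kb (23.3%), and highest at 3 to 4 kb (31.7%).

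The longest members were 27.2 to 32.4 kb long. Chromosome 7 from 22680601 to 22712999 (32.4 kb, 3 loci) led, 3.20 kb from an intestine region. Chromosome 6 from 15806001 to 15836199 (30.2 kb, 2 loci) was 1.80 kb from an intestine region and chromosome 1 from 8115201 to 8144999 (29.8 kb, 3 loci) was 3.8 kb from a brain region. Chromosome 18 from 34139001 to 34167599 (28.6 kb, 3 loci) followed. The only member with 4 loci was chromosome 23 from 45886401 to 45913599 (27.2 kb), 3.20 kb from an intestine region and 45.4 kb from a testis super-enhancer. The 5 members with the most loci were these regions with chromosome 19 from 9877601 to 9901199 (23.6 kb) in place of the one on chromosome 6.

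Whether H3K27ac signal per base pair was lower or higher in testis-only regions depended on which regions were counted. The deposited signal is a total over the region, but testis regions that share a name also share 1 signal value, even where they differ in length. Whether such values entered the division into typical and super-enhancers is not stated, and its effect on the members and on distances to super-enhancers was not tested. A region is said to have its own signal when that signal, times 10000, is a whole multiple of its length. A shared value also passes where it came from a region of equal length, so counts of own signals may be too high. Of the testis-only regions, 2264 shared a name with another testis region. By the rule of whole multiples, 569 testis-only regions (24.2%) and 1932 others (27.3%) had their own signal. Their medians were 0.410 signal units per bp (95% interval 0.397 to 0.420) and 0.406 (0.399 to 0.414), and these intervals overlap. These groups differed in joined loci: single-locus regions were 89.6% of the 569 and 67.0% of the 1932. Among single-locus regions with their own signal, the testis-only median was lower, 0.418 against 0.452. In single-locus regions with their own signal, the signal was 4.04 times the second number in the region name at the median (quartiles 3.98 and 4.10). In single-locus regions with a shared signal the ratio was 4.05 (4.0 and 4.11). What that number counts is not stated.

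Over all single-locus regions the medians were 0.411 signal units per bp in testis-only regions (0.408 to 0.416) and 0.453 in the others (0.450 to 0.459). In both groups the class medians fell with length up to 4 to 6 kb and were slightly higher in the longer classes. In all 8 length classes of single-locus regions, shared signals included, the testis-only median was the lower one. It was 0.508 against 0.564 at 1 to 2 kb, 0.422 against 0.451 at 2 to 3 kb and 0.369 against 0.385 at 4 to 5 kb, and the differences ran from -0.0557 at 1 to 2 kb to -0.0078 in the longest class. No interval was computed for these class medians. Regions within a class still differ in length, and any part of this in the differences was not tested.

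**Figure D2:**
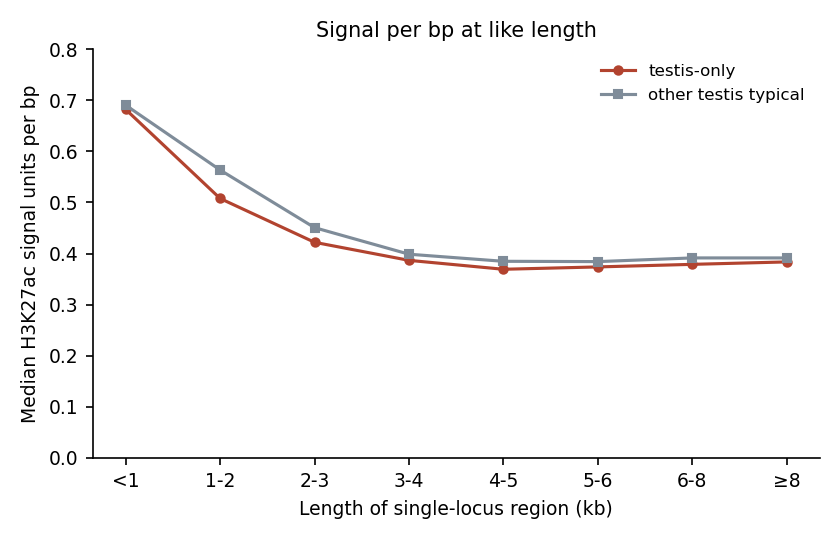
Median H3K27ac signal units per bp of single-locus testis typical enhancers by length, for testis-only regions (red circles) and the other testis typical enhancers (grey squares); shared signals are included and no error is drawn. The red points lie below the grey ones in all 8 classes, with the widest gap at 1 to 2 kb (0.508 against 0.564).

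A few testis-only regions stood far above these medians. Among those with their own signal, chromosome 16 from 16628801 to 16643599 (14.8 kb, 3 loci) had the highest total, 24728 signal units or 1.67 per bp, and lay 242 kb from any other list. Chromosome 17 from 43027401 to 43033199 (5.80 kb, 2 loci) had 18411 units or 3.17 per bp. Chromosome 6 from 15806001 to 15836199 had 16528 units and chromosome 7 from 35907601 to 35922799 (15.2 kb, 2 loci) had 14318. These lay 1.80 kb and 6.0 kb from another list, whereas the pair before them lay 242 kb and 32.0 kb away.

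The remaining 6 of the 10 members with the highest signal had 7858 to 9461 units. Of these, 5 were joined from 2 or 3 loci, 22.8 to 29.8 kb long, and had 0.318 to 0.391 units per bp. They were chromosome 1 from 8115201 to 8144999, chromosome 20 from 23907601 to 23930399, chromosome 7 from 40600201 to 40623599, chromosome 19 from 9877601 to 9901199 and chromosome 24 from 40040601 to 40063799. The other was chromosome 19 from 13956001 to 13957399, which was 1.40 kb long and had 8457 units, or 6.05 per bp. Among the other testis typical enhancers with their own signal, the highest value was 1.89 per bp. In that chromosome 19 region the signal was 13.6 times the second number in its name, against the median of 4.04. The ratio was 5.24 in the chromosome 4 region from 36409601 to 36410799, which had 3.53 units per bp. Other single-locus members with their own signal had ratios between these values. They were chromosome 14 from 17185001 to 17188599 (8.38), chromosome 23 from 7821401 to 7823199 (8.03) and chromosome 16 from 16608001 to 16612599 (5.39). What sets this ratio was not tested.

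Testis-only regions were found on all 25 chromosomes at similar shares. Their share of the testis typical enhancers of a chromosome averaged 24.9% ± 2.82 (SD, n = 25 chromosomes), and the interval of 21 chromosomes contained the overall share of 24.9%. Chromosome 12 (30.9%, 112 of 363, 26.1 to 35.9), chromosome 19 (30.8%, 131 of 426, 26.4 to 35.4) and chromosome 1 (29.8%, 117 of 393, 25.3 to 34.6) had intervals above it. Chromosome 3 had the lowest share (18.8%, 81 of 431, 15.2 to 22.8) and was the sole one with an interval below it. The count of chromosome 12 includes adjacent windows of 1 Mb with 10 testis-only regions among 11 and 8 among 10, described below. Its share without them was not computed. The order changed with the setting, and with own signals only chromosome 12 had 24.7%, with chromosome 9 highest and chromosome 15 lowest. Some of these chromosomes ranked differently in other organs and some did not. Chromosome 1, rank 3 for the testis-only share, was rank 4 for the brain-only share of brain typical enhancers and rank 2 for the intestine-only share. Chromosome 12 was rank 21 of 25 for the brain-only share and rank 22 for the intestine-only share, whereas chromosome 3 was rank 1 for the intestine-only share and rank 16 for the brain-only share.

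Per megabase, with chromosome length taken as the highest end in any list, testis-only regions ran from 1.08 on chromosome 4 to 2.61 on chromosome 19, around 1.73 over all. Chromosome 4 was sparse in other testis typical enhancers as well, with 3.69 per Mb against 5.22 over all, and its testis-only share was 22.6% (67 of 296). On chromosome 4, the first 30 Mb held 19, 23 and 16 testis-only regions per 10 Mb, and the stretches from 30 to 60 Mb held 2, 0 and 5. The other testis typical enhancers thinned out along the same stretches, with 71, 88 and 39 and then 3, 3 and 13. The last stretch, from 60 Mb to the highest end at 62.1 Mb, held 2 testis-only regions and 12 others. It is far shorter than 10 Mb, so its counts cannot be set beside those before it.

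The testis-only share was higher toward the chromosome ends. It was 27.9% (25.9 to 30.0) in the outermost 10% of the length at either end, 27.4%, 25.9% and 23.0% in the following steps of 10%, and 21.5% (19.9 to 23.3) in the innermost step. The outermost step held 26.0% (23.3 to 29.0) at the low-coordinate end and 29.7% (26.8 to 32.7) at the high-coordinate end. Only the interval of the low-coordinate end contains the share over all testis typical enhancers, 24.9%. Both outermost steps together held 526 testis-only and 1359 other testis typical enhancers, and both innermost steps held 499 testis-only and 1818 others, so mainly the number of the others differed.

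**Figure D3:**
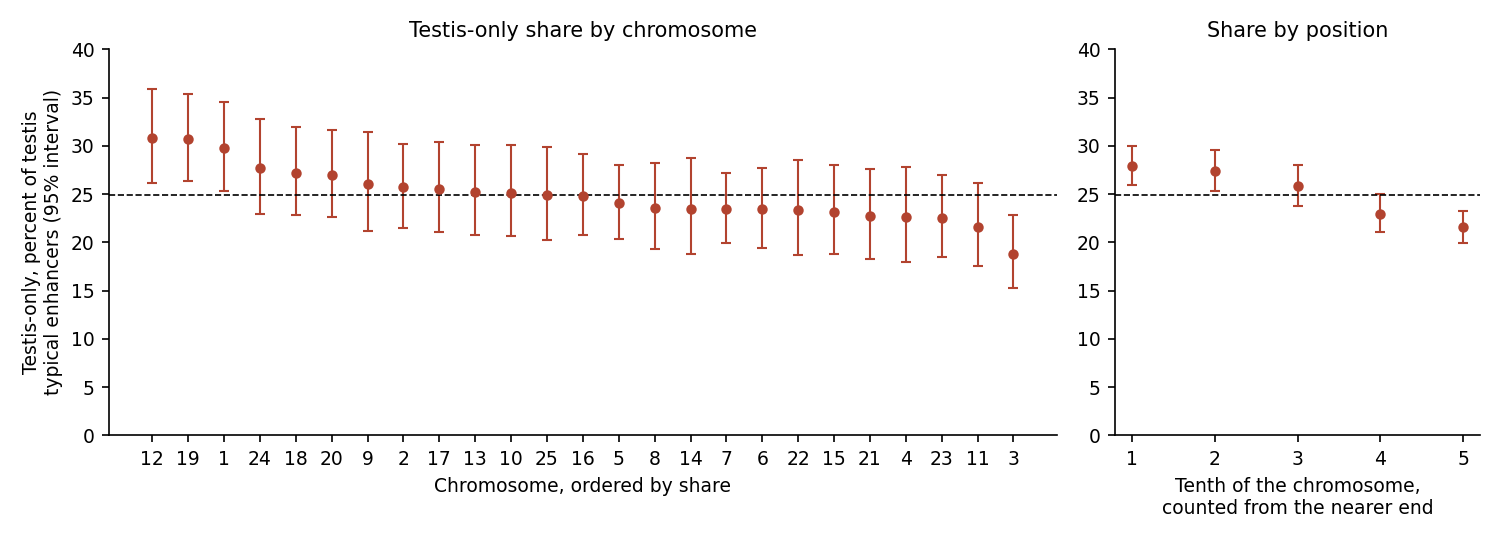
Left, the testis-only share of testis typical enhancers on each of 25 chromosomes, ordered by share, with exact 95% intervals; right, the same share by steps of 10% of chromosome length, counted from the nearer end. The dashed line is the share over all testis typical enhancers, 24.9%. Chromosomes 12, 19 and 1 lie above it with their intervals and chromosome 3 below, and the share is 27.9% at the ends and 21.5% in the centre.

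Testis-only regions lay somewhat farther from testis super-enhancers. The median distance to the nearest one was 876 kb (95% interval 785 to 939), against 718 kb (686 to 760) for the other testis typical enhancers. The quartiles were 300 and 2270 kb against 215 and 2014 kb, so the groups overlapped over most of their range. Within 100 kb of a testis super-enhancer lay 222 testis-only regions (9.44%, 8.29 to 10.7) and 989 of the others (14.0%, 13.2 to 14.8). The difference of -4.52 points was -2.82 points without the 1-year lists, an alternative chosen after seeing the data. The testis-only share was 19.6% within 25 kb, 15.5% at 25 to 50 kb (11.9 to 19.7) and 19.5% at 50 to 100 kb, and ran from 25.7% to 27.2% in every class beyond 250 kb. The difference of the medians, 157 kb, was 42.9 kb when a shared region had to be covered by at least 50%.

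Seen from the super-enhancers, 200 of 581 (34.4%) had a testis-only typical enhancer within 100 kb. Of the testis super-enhancers, 32 had no overlap with any region of the other 4 sets themselves. A testis typical enhancer of any kind lay within 100 kb of 30 of these 32, and of 507 of the 549 that met another list. Around these 32, 12 of 54 typical enhancers within 100 kb were testis-only (22.2%, 12.0 to 35.6). Around the 549 that met another list it was 210 of 1157 (18.2%, 16.0 to 20.5), and the intervals overlap. The nearest member to a super-enhancer lay 1.20 kb away. The closest of the high-signal members were chromosome 20 from 23907601 to 23930399, at 15.4 kb, and chromosome 7 from 35907601 to 35922799, at 18.6 kb.

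**Figure D4:**
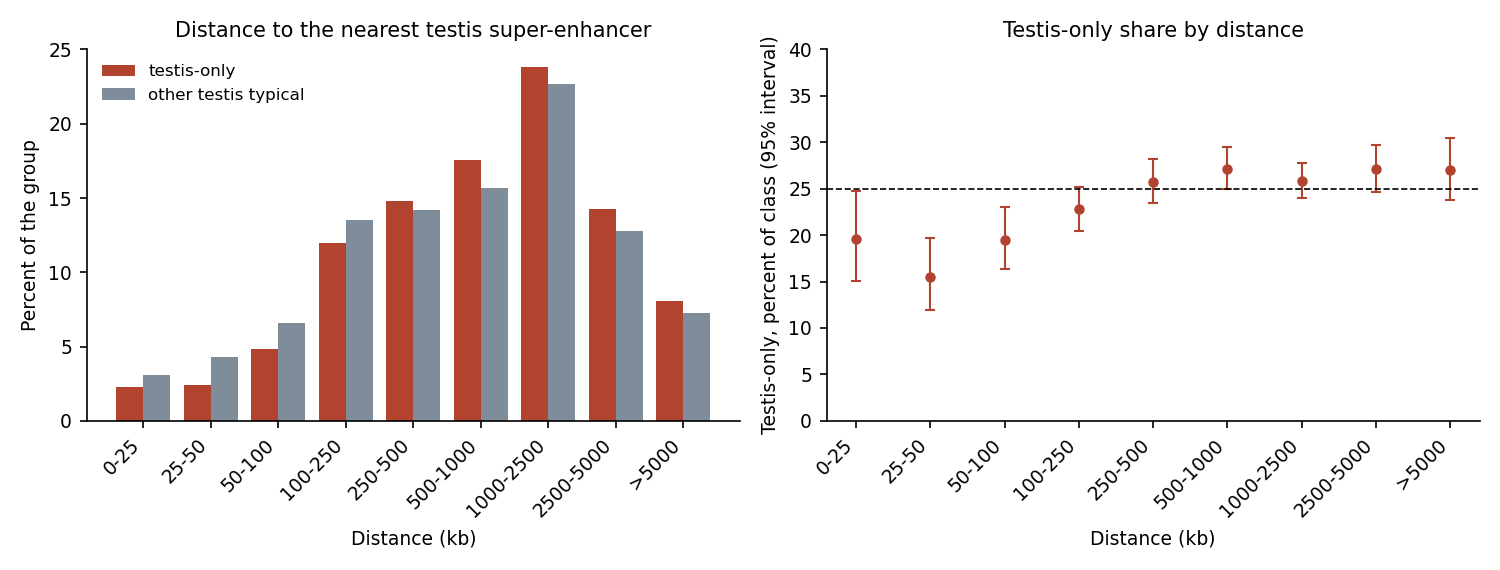
Left, the distance from testis-only regions (red, left bars) and other testis typical enhancers (grey) to the nearest testis super-enhancer, as percentages of each group in classes of kb. Right, the testis-only share of each class with its exact 95% interval; the dashed line is the overall 24.9%. The share was lowest at 25 to 50 kb, 15.5%, and 25.7% to 27.2% beyond 250 kb.

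Testis-only regions had a testis-only neighbour more often than the other testis typical enhancers did. The nearest testis typical enhancer was itself testis-only for 34.3% of testis-only regions (807, 32.4 to 36.3) and for 21.4% of the others (1519, 20.5 to 22.4). The difference was 12.9 points. Among regions with their own signal, with the neighbour also sought only among those, it was 5.52 points, which is not the same measure. The difference over all testis typical enhancers was present whether the neighbour was near or far: 36.3% against 19.0% where it lay 15 to 25 kb away and 35.0% against 23.6% where it lay over 100 kb away. Regions of other organs within 100 kb were fewer around testis-only regions, which follows at least in part from the rule, since each of the other testis typical enhancers overlaps at least 1 of them. Brain regions averaged 1.98 around testis-only regions against 2.85 around the others. Intestine regions averaged 2.34 against 3.55, and those of the heart at 1 year 2.25 against 3.32. Their part in the neighbour shares was not tested.

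The distance to the nearest testis typical enhancer of any kind was larger for testis-only regions, with a median of 44.2 kb (42.0 to 46.6) against 37.8 kb (37.0 to 39.2), and 21.5% of them had no other testis typical enhancer within 100 kb, against 17.5% of the others. From each testis-only region to its nearest other testis-only region the median gap was 152 kb, with quartiles of 57.2 and 354 kb. Another lay within 50 kb of 523 of them (22.2%). These are distances to the nearer side only, not the spacing of successive testis-only regions. Of 1369 windows of 1 Mb, 377 held no testis-only region. The variance of the count per window over its mean was 1.57 for testis-only regions. It was 2.53 for the other testis typical enhancers, whose mean count was higher (5.17 against 1.72).

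Counting testis-only regions in a row, with no other testis enhancer of either kind between them, gave 1609 runs. A run of 1 held 1124 of the members (47.8%). The remaining 1227 (52.2%) fell into 485 runs of 2 or more with a median span of 131 kb: 321 runs of 2, 103 of 3, 42 of 4, 11 of 5, 6 of 6, and 1 each of 8 and 9. Runs also arise when members are placed without regard to order. Of 9409 adjacent pairs of testis typical enhancers, 8.14% were both testis-only, and the square of the testis-only share is 6.21%.

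**Figure D5:**
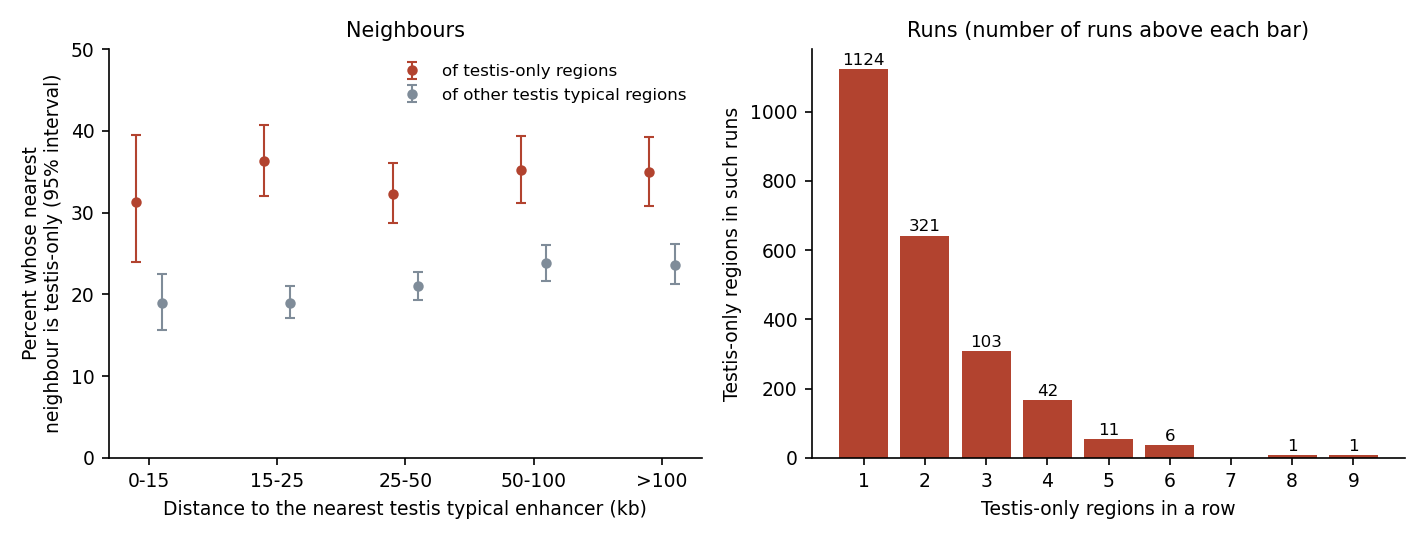
Left, the percentage of testis-only regions (red) and of other testis typical enhancers (grey) whose nearest testis typical enhancer is testis-only, by the distance to that neighbour in kb, with exact 95% intervals. Right, the number of testis-only regions in runs of each size, with the number of runs above each bar. The red points run from 31.3% to 36.3% and the grey ones from 18.9% to 23.8%, and 1124 regions stood alone.

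The longest run was on chromosome 12 from 7321201 to 7868999 and held 9 testis-only regions over 548 kb. Its members were 2.6 to 16.6 kb long, 55.4 kb in all, and 8 of them had a single locus. Signal ran from 0.270 to 0.492 units per bp, and 2 of the 9 had their own signal. Over the whole span only 2 regions of other organs were found, 1 from the intestine and 1 from the 1-year heart. This is 0.365 per 100 kb, against 4.15 per 100 kb over all chromosomes. The rule itself favours low values in long runs. Members overlap no region of another list, and a run ends at the first testis enhancer that is not a member. The third to eighth members from the low-coordinate end were 83.2 to 215 kb from any other list.

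The window of 1 Mb that holds this run, chromosome 12 from 7000001 to 8000000, had more testis-only regions than any other window, 10 among 11 testis typical enhancers (90.9%). Other organs had regions in this window too, 1 of the brain, 6 of 10-month hearts, 10 of 1-year hearts and 5 of the intestine, counting the 2 inside the run. The window before it, from 6000001 to 7000000, held 8 testis-only regions among 10 (80.0%) beside 4 brain, 11 heart (10 months), 13 heart (1 year) and 14 intestine regions. The other windows with 8 members were on chromosome 4 from 21000001 to 22000000 (8 of 13), chromosome 6 from 26000001 to 27000000 (8 of 15) and chromosome 19 from 43000001 to 44000000 (8 of 18).

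The next longest run held 8 testis-only regions on chromosome 5 from 43928401 to 44302399, over 374 kb. The single enhancer of another organ inside it was from the heart at 10 months, or 0.267 per 100 kb. Its members were shorter, from 0.199 to 11.6 kb. Of the 6 runs with 6 members, the 3 of widest span had more regions of other organs inside them. Chromosome 12 from 39097801 to 39753399 (656 kb) also held 33 regions of other organs, 5.03 per 100 kb, among them 14 from 10-month and 12 from 1-year hearts. Chromosome 14 from 45144201 to 46724799 (1581 kb) held 29, of which 19 were brain regions, or 1.83 per 100 kb. Chromosome 20 from 48570601 to 49253399 (683 kb) held 12, or 1.76 per 100 kb. Of the 5 longest runs, only the one on chromosome 12 from 39097801 to 39753399 exceeded the 4.15 per 100 kb over all chromosomes.

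Set beside brain-only and intestine-only typical enhancers found by the same rule, testis-only regions had the longest median and the largest share of single loci, but regions of the 10-month heart alone had a larger share still, 96.1%. The median length was 3.20 kb for testis-only regions (quartiles 2.20 and 4.40), 2.40 kb for brain-only regions (1.40 and 6.0) and 2.0 kb for intestine-only regions (1.20 and 4.0). Single loci made up 93.0% of testis-only, 74.3% of brain-only and 80.8% of intestine-only regions. In each organ this was above the other typical enhancers of the same list, at 80.1%, 56.3% and 53.0%. Among single-locus regions the brain-only median was 1.80 kb against 2.20 kb for other brain regions, and the intestine-only median 1.60 against 1.80 kb. The testis-only median was the longer one of its list, 3.20 against 2.80 kb. The other testis regions thus also had the longest single-locus median and the largest share of single loci of these 3 lists. Over all the other typical enhancers, the median length was 3.40 kb in testis, 4.60 kb in brain and 5.0 kb in intestine.

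Neighbours were alike in direction in all 3 organs by their kind, but not by their distance. The median distance to the nearest typical enhancer was larger for the organ's own regions in testis and intestine but smaller in brain. The share with a neighbour of the same organ only was higher for the organ's own regions in all 3. Its size differed, but so did the share of such regions in each list: 24.9% in testis, 32.3% in brain and 23.0% in intestine. The nearest typical enhancer was itself of that organ only for 34.3% of testis-only, 52.8% of brain-only and 32.1% of intestine-only regions, against 21.4%, 23.3% and 19.1% of the other regions of the same lists. The median distance to a super-enhancer of the same organ was larger for the organ's own regions in each case: 876 against 718 kb for testis, 653 against 614 kb for brain and 404 against 312 kb for intestine. These lists differ in number and length of regions and have no replicate values, so differences between organs were not tested.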

How the data were processed

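The 10 region lists used here hold super-enhancers and typical enhancers in separate files for 5 combinations of organ and age. Per the labels, they come from H3K27ac chromatin immunoprecipitation and sequencing with input libraries, in coordinates of the zebrafish build Zv9. SICER 1.1, bedtools 2.24.0, Bowtie2 2.1.0, CASAVA and SAMtools 0.1.8 were used per the submitters' processing notes, which give them no role. The joining of loci, the super-enhancer threshold, the use of input and the pooling of replicates are steps not stated in the labels. Normalized signal tracks were not analysed here. The value the authors deposited per region is a signal, a total over the region. Its scaling between lists is not stated, so signal was compared only within the testis list.

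Overlap was counted in base pairs and distance as base pairs between region edges on the same chromosome. Starts are printed counted from 1. A name without a count of loci was taken as 1 locus (17 testis-only and 57 other testis typical enhancers). Positions along chromosomes used region centres and the highest end in any list. Functions were tested on simulated regions. Python 3.11.15, numpy 2.4.6, pandas 2.3.3, scipy 1.17.1 and matplotlib 3.10.9 were used.

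The members, results and alternatives were chosen with earlier results of these data known. Regions named are the 10 members with the highest own signal, the 5 longest, the 5 with the most loci, the 5 farthest from other lists, the 5 longest runs, the 5 fullest windows of 1 Mb, and regions at the edge of the rule. No base sequence is shown because no genome of the build was used here.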

Additional observations from a re-analysis of the deposited data

Results flagged for a closer look

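The contrast of length among single-locus regions ran in opposite directions in testis and brain. Regions of the organ alone minus the other typical enhancers of the same list gave a difference of medians of 0.40 kb in the testis and -0.40 kb in the brain. With 1 list per organ this difference between organs was not tested.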

How the results depend on the processing

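Values in this paragraph are testis-only minus other testis typical enhancers unless named otherwise. Requiring that at least 50% of a region be covered before it counted as shared gave 3100 members, turned the difference of median lengths round from -0.20 to 0.40 kb, brought that of the single-locus share from 12.9 to 0.28 percentage points, that of the median distance to a testis super-enhancer from 157 to 42.9 kb, and that of signal per bp from 0.0041 to -0.026. With single-locus regions only the length difference was 0.40 kb and that of signal per bp -0.034. Without the heart lists at 10 months the difference of signal per bp was -0.0012, and over all single-locus signals, an alternative chosen after seeing the data, it was -0.042. With signals at or above the list median 977 members remained, and the length difference was -0.80 kb and the single-locus difference 20.7 points. With own signals only there were 569 members, a length difference of -1.30 kb, a single-locus difference of 22.6 points and a difference of 5.52 points in the share with a testis-only neighbour, against 12.9 points as reported. The cause of these changes was not tested, except that dropping regions lowers a count by construction. A margin of 5 kb (1833 members), leaving out chromosome 4 (2284) and, chosen after seeing the data, leaving out the 1-year lists (3316) kept the direction of all 7 main results. Over 8 alternatives the neighbour difference ran from 5.52 to 14.8 points, the super-enhancer distance difference from 42.9 to 181 kb, the gap between the highest and lowest chromosome from 10.6 to 17.8 points, and the excess at chromosome ends over the centre from 4.93 to 8.61 points. Chromosome 12 was not the highest in 4 of these 8 alternatives (chromosome 1 under the 50% rule, 9 with own signals, 19 with higher signals and without the heart at 10 months). Chromosome 3 was not the lowest in 3 (8 with higher signals, 15 with own signals, 23 without the 1-year lists). The longest run had 5 members with own signals only and 6 to 10 otherwise. With higher signals, own signals or single-locus regions only, neighbours and runs were sought among the kept typical enhancers alone. Those neighbour and run values are therefore not the same measure as reported. The single-locus share has no value where only single-locus regions are kept. No paired analysis was possible because each list is 1 set of values per tissue with no column per replicate, and for the same reason no replicate could be left out.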
